A study of Macaca fascicularis with 2 samples.

Results

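Cohesin is the ring-shaped protein complex that holds sister chromatids together, and 9 of the 18446 genes measured here encode its core: REC8, RAD21L1, RAD21, STAG3, STAG1, STAG2, SMC1B, SMC1A and SMC3. They were chosen by name, as the known meiotic subunits and the mitotic subunits they stand beside, and all 9 were found in the data. In every ring an SMC1 protein and SMC3 form the long arms, a kleisin closes them and a STAG protein sits on the kleisin. Dividing somatic cells use SMC1A, RAD21 and STAG1 or STAG2. Cells in meiosis also make SMC1B, the kleisins REC8 and RAD21L1, and STAG3, while no meiotic paralogue of SMC3 is known. In fetal oocytes the meiotic rings form the axes along which homologous chromosomes pair, and the cohesion they provide has to last until the oocyte divides in the adult.

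The data are single-cell RNA profiles of whole ovaries of 2 fetuses of Macaca fascicularis, the cynomolgus monkey, 1 at embryonic day 84 and 1 at embryonic day 116. Both ovaries of a fetus were digested with enzymes and captured together in 1 library with the 10x Genomics 3′ v3 kit. No treatment or genetic change of either fetus is stated, and no sorting of cells is described. The deposited table holds 20967 cells with 148824177 unique molecular identifiers (UMIs, 1 per captured RNA molecule), a median of 3756 per cell. Cell barcodes end in 1 (10621 cells, median 3130 UMIs) or 2 (10346 cells, median 4555.5 UMIs), and 27 barcode sequences occur with both endings. No label ties an ending to a fetus, so no difference between the 2 ages was examined, all cells were treated as 1 pooled sample without replicates, and no test was possible. Every interval below is a 95% interval that covers counting error only.

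Clusters were named from marker genes, without cohesin genes or their regulators among the genes used for clustering. Of 6317 germ cell-like cells, 255 were mitotic-like, 1444 premeiotic-like (the cells that respond to retinoic acid), 1642 meiotic-like and 674 oogenesis-like, and 2302 in 3 sub-clusters met no step's naming rule. Outside germ cells, 2424 cells in 2 clusters also stayed without a name and enter no group below. The names rest on these marker genes, so the marker levels below describe the groups and do not test the names. Levels are given as CPM, the UMIs of a gene summed over a group and scaled to the same total of UMIs in every group. NANOG, a pluripotency factor, had 211 CPM in mitotic-like cells, with no more than 16.5 CPM in the other 3 steps. STRA8, the retinoic acid-induced gene that starts meiosis, reached 44.2 CPM in premeiotic-like cells and at most 2.60 CPM elsewhere among the steps. MSX2, a marker of the same step, was not higher there, at 20.3 CPM against 20.5 CPM in mitotic-like cells. SYCP1, a component of the synaptonemal complex, reached 921 CPM in meiotic-like cells, and GDF9, an oocyte growth factor, 374 CPM in oogenesis-like cells. FIGLA, an oocyte transcription factor and marker of the oogenesis step, was already at 127 CPM in meiotic-like cells. Among somatic groups, the macrophage-like one also had lymphocyte markers, with CD3D at 317 CPM. Of the granulosa markers, SERPINE2 was higher in stroma-like than in granulosa-like cells (837 against 357 CPM). IRX3 and INHBB were higher in ovarian surface epithelium-like cells. FOXL2, AMHR2, FST, WNT6 and KITLG were highest in granulosa-like cells among the named groups. Of the stroma markers, DLK1 was higher in pericyte-like than in stroma-like cells (867 against 633 CPM). All but 3 mitotic-like cells had barcodes ending in 1 and all but 20 oogenesis-like cells had barcodes ending in 2, so values of cohesin genes are also given within an ending. Levels of cohesin regulators, other SMC complexes and cell cycle genes are pooled over both endings. For those 2 steps taken over both endings, the step and the library cannot be told apart.

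Germ cell transcripts were also found at low levels in cells that should lack them. SMC1B stood at 23.2 CPM (18.6 to 28.6) in erythroid-like cells, in which hemoglobin HBB alone took 466836 CPM, and at 75.4 CPM in granulosa-like cells of ending 1 against 23.1 CPM in those of ending 2. Within ending 1 it was also at 40.1 CPM in stroma-like, 24.2 CPM in erythroid-like and 18.8 CPM in ovarian surface epithelium-like cells, so the low level was not the same in every group. RNA released from broken cells can enter any droplet, and its part in these values was not tested. For the 4 meiotic subunits, a germ cell level at or below the granulosa-like level of the same ending is not read as expression. UMI counts of this kit are not divided by gene length, and how well a gene's 3′ end is annotated affects its count, so levels are compared between groups for 1 gene, and paralogues by how their shares differ between groups.

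**Figure D1:**
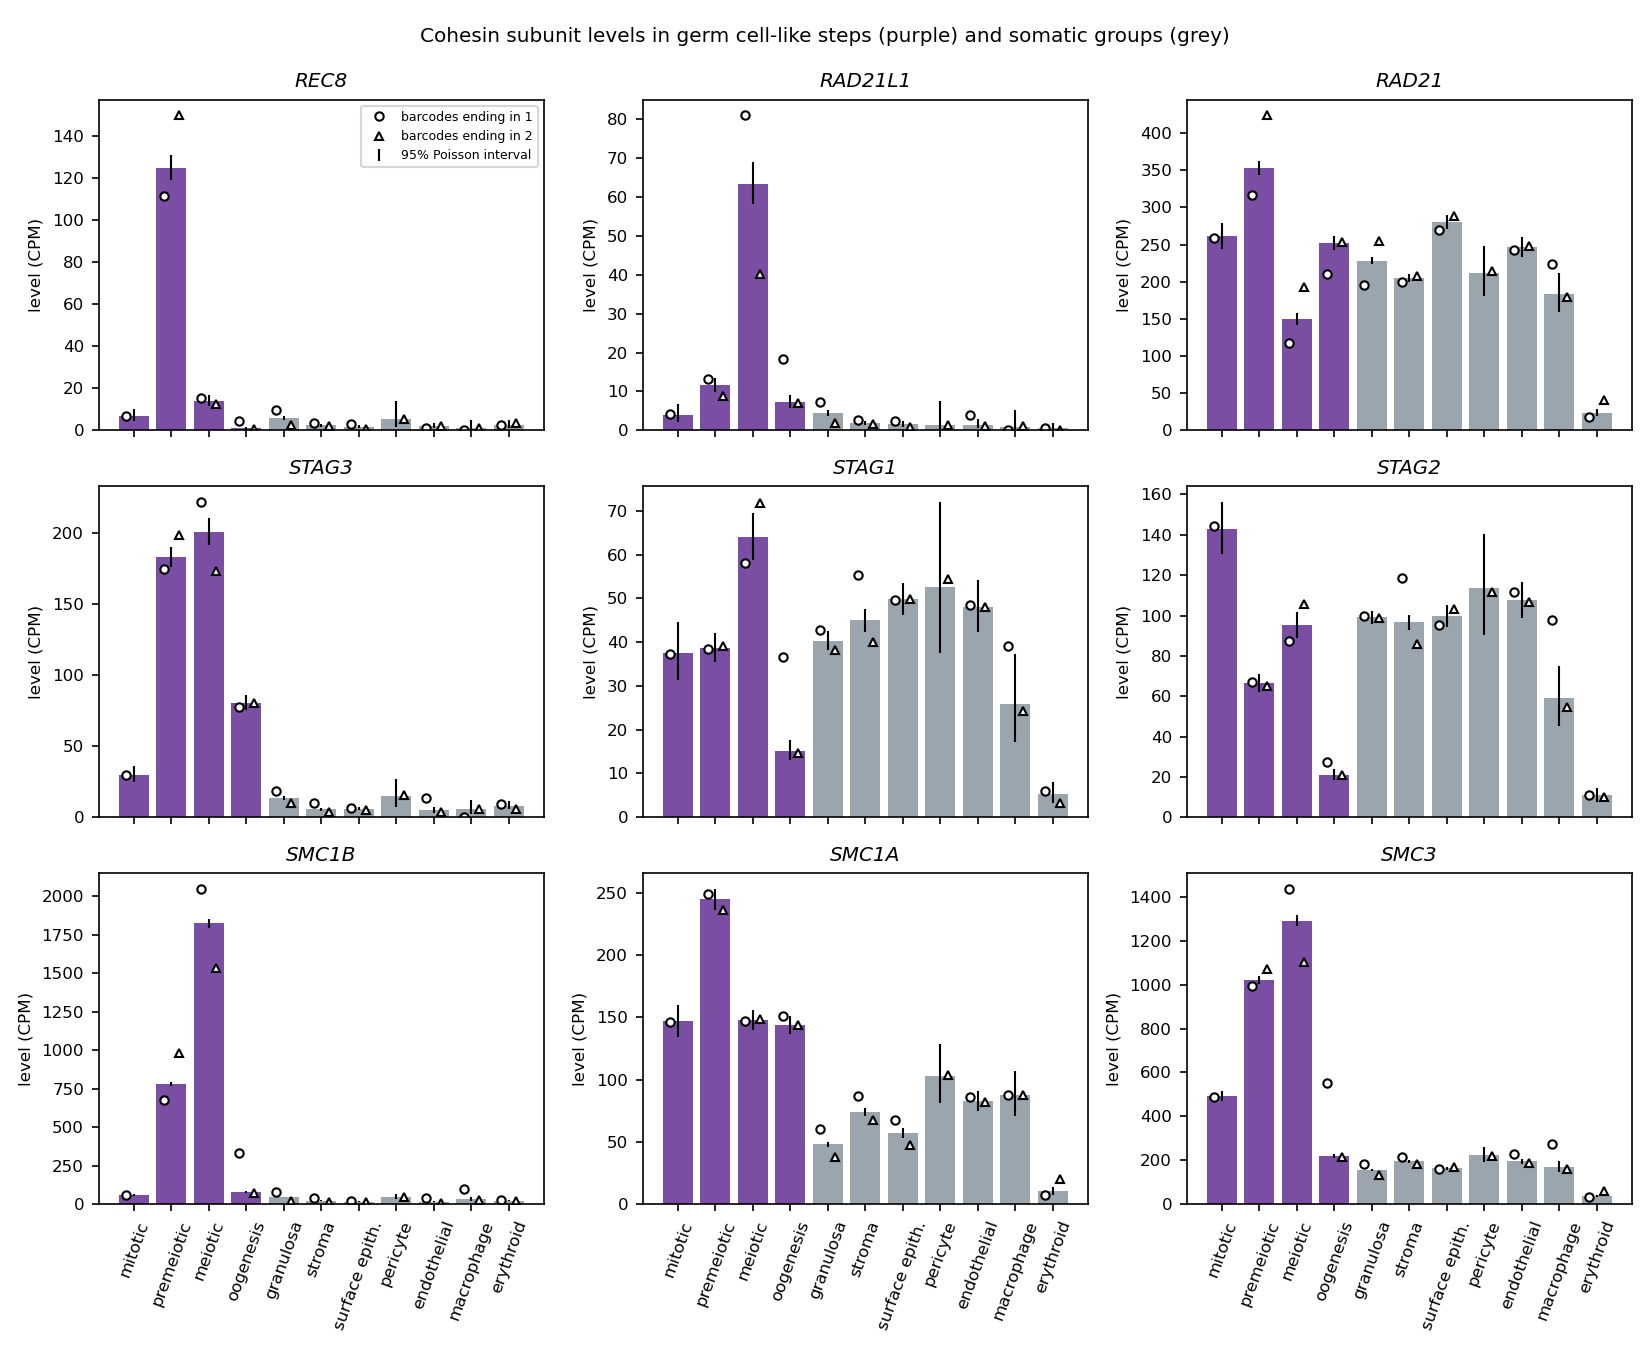
Level of each cohesin gene in CPM (linear axes from 0) in the 4 germ cell-like steps (purple bars) and 7 somatic groups (grey bars). Bars are sums over all cells of a group with their 95% Poisson interval, circles and triangles are the same sum within barcodes ending in 1 and 2, shown where a group has a value. REC8 stands highest in premeiotic-like cells at 125 CPM, and RAD21L1 and SMC1B in meiotic-like cells at 63.4 and 1824 CPM.

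The kleisins differed in their pattern across the germ cell steps. REC8, the kleisin that keeps sister chromatids together through the first meiotic division, was far higher in premeiotic-like cells than in the other named steps, RAD21L1, a kleisin of early meiotic prophase, was highest in meiotic-like cells, and RAD21, the kleisin of dividing somatic cells, was lowest there.

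REC8 was counted at 6.92 CPM (4.43 to 10.3) in mitotic-like, 125 CPM (119 to 131) in premeiotic-like, 14.2 CPM (11.8 to 16.9) in meiotic-like and 0.916 CPM (0.439 to 1.68) in oogenesis-like cells. From the mitotic-like to the premeiotic-like step it was higher by 4.17 on the log2 scale (3.59 to 4.82), and from there to the meiotic-like step lower by a log2 difference of -3.13 (-3.41 to -2.87). The second difference was -2.85 among barcodes ending in 1 and -3.58 among those ending in 2. The mitotic-like level, 7.03 CPM within ending 1, lay below the 9.55 CPM of granulosa-like cells of that ending, and the oogenesis-like level, 0.841 CPM within ending 2, lay below their 2.77 CPM (log2 difference -1.72, -2.92 to -0.69). The interval of the mitotic-like difference, -1.13 to 0.19 on the log2 scale, includes 0. Neither level is read as expression. In meiotic-like cells REC8 stood above granulosa-like cells in both endings, by 1.62-fold (log2 0.70, 0.28 to 1.10) and by 4.52-fold (log2 2.18, 1.58 to 2.77). A cluster of shallow granulosa-like cells, mostly of ending 1 and given below, had a higher REC8 level, from 16 UMIs. It lay above the 15.5 CPM of meiotic-like cells of ending 1. The excess in ending 1 thus depends on the granulosa-like cells compared and is not read as expression.

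All 3 premeiotic-like sub-clusters carried REC8, at 128, 103 and 163 CPM, the last made almost wholly of cells ending in 2. Of the 3 germ sub-clusters without a step name, none was without it, with 51.6, 74.4 and 81.2 CPM. The shallow and the deep meiotic-like sub-clusters were both low, at 19.7 and 12 CPM. Shallow and deep cells of a step therefore lay on the same side of this difference.

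RAD21L1 had few UMIs, 14 in mitotic-like, 159 in premeiotic-like, 549 in meiotic-like and 79 in oogenesis-like cells. Its level was 4.04 CPM (2.21 to 6.77) in mitotic-like, 11.6 CPM (9.90 to 13.6) in premeiotic-like, 63.4 CPM (58.2 to 68.9) in meiotic-like and 7.24 CPM (5.73 to 9.02) in oogenesis-like cells. The meiotic-like level was higher than the premeiotic-like one by 2.45 on the log2 scale (2.19 to 2.71), with 2.63 within ending 1 and 2.20 within ending 2. It was 81.0 CPM in ending 1 and 40.2 CPM in ending 2, a gap wider than counting error. The mitotic-like value is not read as expression, since it was 4.10 CPM in ending 1 against 7.36 CPM in granulosa-like cells. In premeiotic-like cells the gene stood 1.78-fold and 4.41-fold above granulosa-like cells in the 2 endings. The shallow granulosa-like cluster given below had 10 RAD21L1 UMIs among 857022 UMIs. They made up 5.13% (2.49 to 9.23) of its kleisin UMIs, against 2.98% (2.47 to 3.56) in premeiotic-like cells of ending 1. The premeiotic-like excess in ending 1 is therefore not read as expression.

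RAD21 stood at 261 CPM (244 to 279) in mitotic-like, 353 CPM (343 to 363) in premeiotic-like, 150.2 CPM (142 to 159) in meiotic-like and 252 CPM (243 to 262) in oogenesis-like cells. It was the only 1 of the 9 genes whose meiotic-like level lay below both the mitotic-like and the oogenesis-like level beyond the counting intervals. The meiotic-like level was also below that of granulosa-like cells in both endings, at 117 against 196 CPM and at 193 against 255 CPM. From the premeiotic-like step it was lower by a log2 difference of -1.23 (-1.32 to -1.14), and toward the oogenesis-like step it was higher by 0.75 (0.65 to 0.84), or 0.39 within ending 2. With cells of 200 to 3000 genes only, the mitotic-like level was above the premeiotic-like one, at 283 against 252 CPM, so the order of those 2 steps is not settled. Its level differed with depth, at 98.2 CPM in the shallow and 171 CPM in the deep meiotic-like sub-cluster (median 1402 and 13473.5 UMIs per cell), and the part of depth in this was not tested. Oogenesis-like cells had 184 CPM (160.1 to 211) with up to 3000 genes and 260.1 CPM (250.1 to 270.4) with more. Meiotic-like cells had 108 CPM (96.4 to 121) and 170.1 CPM (159.7 to 181) in the same order. The shallow oogenesis-like sub-cluster supplied 96 of the 2753 RAD21 UMIs of its step, so the pooled level rests mostly on deep cells. The order of the shallow oogenesis-like and shallow meiotic-like sub-clusters is not read.

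As shares of the kleisin UMIs, REC8 made up 2.55% (1.64 to 3.76) of mitotic-like, 25.5% (24.4 to 26.5) of premeiotic-like, 6.23% (5.21 to 7.39) of meiotic-like and 0.352% of oogenesis-like cells. RAD21L1 made up 1.48%, 2.38%, 27.8% (25.9 to 29.9) and 2.78% in the same order. The RAD21 shares were 96.0%, 72.1%, 65.9% (63.8 to 68.0) and 96.9%. In meiotic-like cells the RAD21L1 share was 37.9% in ending 1 and 16.3% in ending 2, against 2.98% and 1.5% in premeiotic-like cells. The RAD21 share, however, went from 71.7% in premeiotic-like to 54.8% in meiotic-like cells in ending 1 and from 72.8% to 78.6% in ending 2, so no direction is read from it, although the level of RAD21 itself was lower in meiotic-like cells in both endings.

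**Figure D2:**
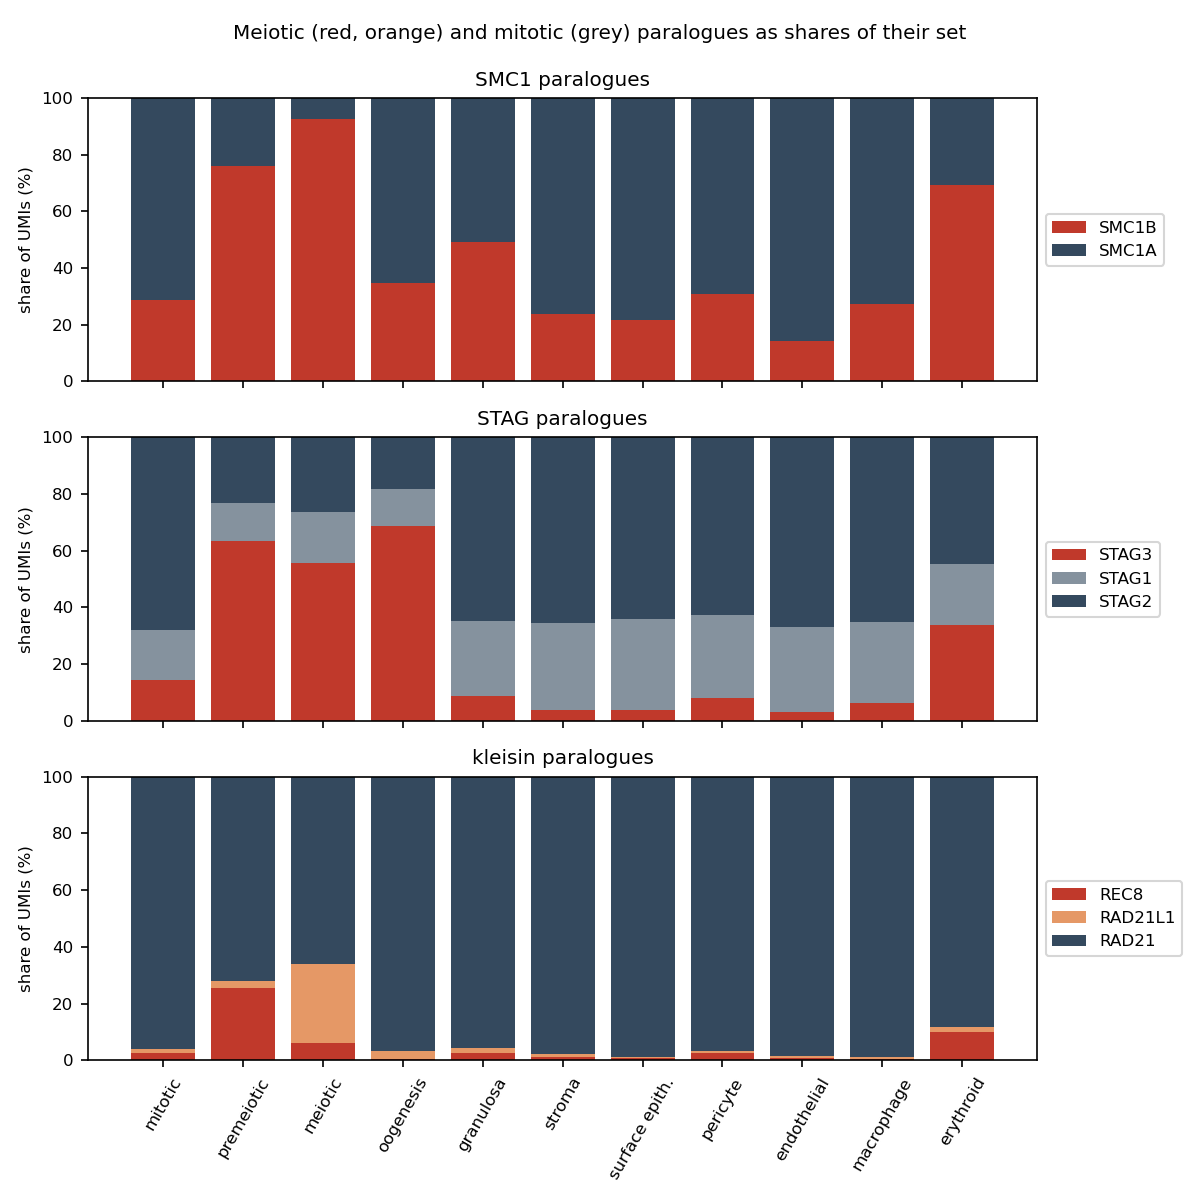
UMIs of each paralogue as a share in percent of its set (SMC1, STAG and kleisin), by germ cell-like step and somatic group, each bar adding to 100%. SMC1B reaches 92.5% of the SMC1 UMIs in meiotic-like cells, and the erythroid-like shares rest on few UMIs, 88 of SMC1B and 31 of STAG3.

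SMC1B, the SMC1 protein of meiotic rings, took a larger share of SMC1 UMIs in premeiotic-like and meiotic-like cells than in mitotic-like and oogenesis-like cells. Its level was 59.4 CPM (51.6 to 68.1) in mitotic-like, 780.2 CPM (765 to 795) in premeiotic-like, 1824 CPM (1795 to 1852) in meiotic-like and 77.0 CPM (71.8 to 82.3) in oogenesis-like cells. The mitotic-like level in ending 1, 58.6 CPM, lay below the 75.4 CPM of granulosa-like cells there and is not read as expression. The premeiotic-like level stood 8.95-fold above granulosa-like cells in ending 1 and 42.5-fold in ending 2, and the meiotic-like level 27.1-fold and 66.2-fold. The meiotic-like level exceeded the premeiotic-like one by 1.22 on the log2 scale (1.19 to 1.26), by 1.60 in ending 1 and by 0.64 in ending 2. Oogenesis-like cells lay lower than meiotic-like cells by a log2 difference of -4.57 (-4.67 to -4.47), or -4.42 within ending 2, and were 3.10-fold above granulosa-like cells of ending 2.

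SMC1A, the SMC1 protein of dividing cells, differed less between the steps. It was counted at 147 CPM (134 to 160) in mitotic-like, 245 CPM (236 to 253) in premeiotic-like, 148 CPM (140 to 156) in meiotic-like and 144 CPM (137 to 151) in oogenesis-like cells. The mitotic-like, meiotic-like and oogenesis-like levels overlapped in their intervals, and the log2 difference from the meiotic-like to the oogenesis-like step was -0.04 (-0.15 to 0.07). All 4 steps stood above granulosa-like cells (47.9 CPM) and stroma-like cells (73.8 CPM). SMC1B took 28.8% (25.5 to 32.3) of the SMC1 UMIs in mitotic-like, 76.1% (75.4 to 76.8) in premeiotic-like, 92.5% (92.1 to 92.9) in meiotic-like and 34.9% (33.0 to 36.8) in oogenesis-like cells. Within endings 1 and 2 its share was 73.0% and 80.6% in premeiotic-like cells and 93.3% and 91.2% in meiotic-like cells. In granulosa-like cells, with SMC1B at 46.5 CPM and SMC1A at 47.9 CPM, the SMC1B share was 49.3%.

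STAG3, the meiotic STAG protein, was as high in premeiotic-like as in meiotic-like cells and was the meiotic subunit best kept in the oogenesis-like step. It was counted at 30.0 CPM (24.5 to 36.3) in mitotic-like, 183 CPM (176 to 190) in premeiotic-like, 201 CPM (191 to 210.5) in meiotic-like and 80.6 CPM (75.4 to 86.1) in oogenesis-like cells. The difference between the premeiotic-like and the meiotic-like level was 0.14 on the log2 scale (0.05 to 0.22), but it was 0.34 in ending 1 and -0.19 in ending 2, so no order of the 2 steps is read from it. In mitotic-like cells of ending 1 STAG3 was 1.65-fold above granulosa-like cells (29.9 against 18.1 CPM, log2 0.72, 0.38 to 1.05), the only 1 of the 4 meiotic subunits above them at that step. The shallow granulosa-like cluster given below had 20 STAG3 UMIs among 857022 UMIs. They made up 13.0% (8.12 to 19.3) of its STAG UMIs, against 14.1% (11.7 to 16.9) in mitotic-like cells of ending 1. The STAG3 excess at that step is therefore not read as expression. In oogenesis-like cells of ending 2 it was 8.17-fold above granulosa-like cells.

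STAG1 and STAG2, the somatic STAG proteins, differed from each other across the steps. STAG2 was highest in mitotic-like cells at 143 CPM (131 to 156), followed by 66.4 CPM in premeiotic-like, 95.2 CPM in meiotic-like and 21.2 CPM (18.5 to 24.1) in oogenesis-like cells. STAG1 was level from mitotic-like to premeiotic-like cells at 37.5 and 38.6 CPM, a log2 difference of 0.04 (-0.24 to 0.33), and was highest in meiotic-like cells at 63.9 CPM (58.7 to 69.5). Both were lower in oogenesis-like than in meiotic-like cells, by log2 differences of -2.07 and -2.17. STAG2 in oogenesis-like cells of ending 2 was at 0.21 times and STAG1 at 0.39 times the granulosa-like level. STAG3 took 14.2% (11.8 to 17.0), 63.5% (62.0 to 65.0), 55.8% (54.0 to 57.5) and 68.9% (66.3 to 71.4) of the STAG UMIs in the 4 steps in order. The high last share went with low STAG1 and STAG2, not with more STAG3.

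SMC3, the arm common to mitotic and meiotic rings, was counted at 492 CPM (469 to 516) in mitotic-like, 1021 CPM (1004 to 1038) in premeiotic-like, 1292 CPM (1268 to 1316) in meiotic-like and 221 CPM (212 to 229) in oogenesis-like cells. It was 2.07-fold higher in premeiotic-like than in mitotic-like cells and 5.86-fold lower in oogenesis-like than in meiotic-like cells. The meiotic-like level exceeded the premeiotic-like one by 0.53 on the log2 scale in ending 1 and by 0.04 in ending 2. Mitotic-like cells of ending 1 already had 2.70 times the granulosa-like level.

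**Figure D3:**
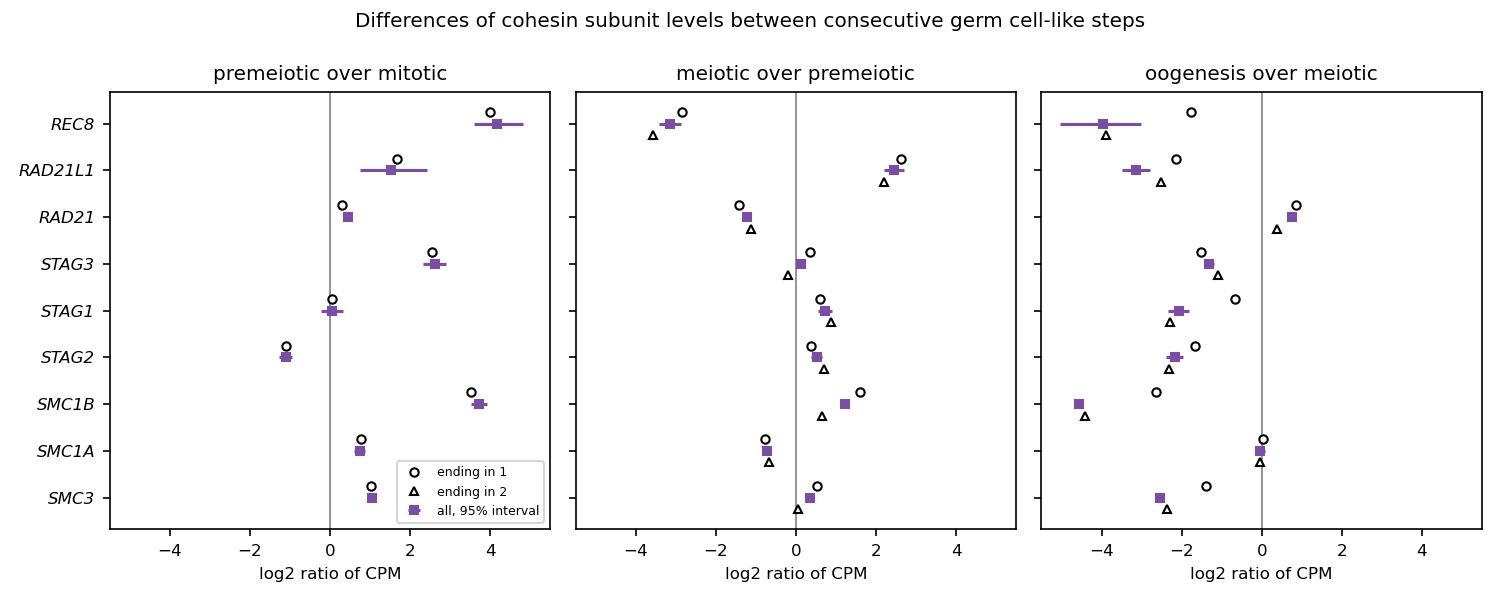
Log2 ratio of CPM between consecutive germ cell-like steps for the 9 cohesin genes. Squares with 95% counting intervals are all cells, circles and triangles are barcodes ending in 1 and 2, and mitotic-like cells have a value in ending 1 only, while ending 1 of the oogenesis-like step holds 20 cells. REC8 lies at 4.17, -3.13 and -3.95 in the 3 panels, and RAD21 at 0.44, -1.23 and 0.75.

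The cohesin genes were then counted beside all genes with at least 10 CPM in either step. From the mitotic-like to the premeiotic-like step 5 of 9 were at least 2-fold higher (REC8, SMC1B, STAG3, RAD21L1 and SMC3), where 19.8% of all genes were, and 1 (STAG2) was at least 2-fold lower, where 10.4% were. The call of RAD21L1 was lost and its direction turned with cells of 200 to 3000 genes only, at 12.7 CPM in mitotic-like and 11.8 CPM in premeiotic-like cells. From the premeiotic-like to the meiotic-like step 2 were higher (RAD21L1 and SMC1B, 14.9% of all genes) and 2 lower (REC8 and RAD21, 13.1% of all genes). From the meiotic-like to the oogenesis-like step none was 2-fold higher (17.3% of all genes) and 7 were lower (25.2% of all genes), the 2 others being RAD21 and SMC1A. Between the meiotic-like and the mitotic-like step 5 were higher (30.6% of all genes) and none lower (17.8%). The median log2 differences of the 9 genes over the 3 consecutive steps were 1.05, 0.34 and -2.17, and those of all genes 0.31, 0.06 and -0.22.

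Counted cell by cell, SMC1B and SMC3 RNA was widespread while the meiotic kleisins were seen in a minority of cells. When each cell was thinned to 5000 UMIs, 465 meiotic-like cells had from 0 to 29 SMC1B UMIs with a median of 8, and 13 had none. SMC3 ranged from 0 to 23 with a median of 6. In 783 premeiotic-like cells SMC1B ranged from 0 to 25 with a median of 3, and REC8 from 0 to 9 with a median of 0. RAD21L1 never exceeded 5 UMIs in a meiotic-like cell. At the shallower depth of 1000 UMIs, which kept 1406 premeiotic-like and 1292 meiotic-like cells and left out 38 and 350, REC8 was detected in 11.5% (9.83 to 13.2) and 2.32% of them. SMC1B was detected in 44.2% and 73.6%, against 3.14% in mitotic-like and 5.23% in granulosa-like cells, and RAD21 in 25.2% and 11.2%. Without thinning, 17.7% of all germ cell-like cells had a REC8 UMI and 65.1% an SMC1B UMI.

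Meiotic and mitotic paralogues were found in the same cells. Of the 783 premeiotic-like cells at 5000 UMIs, 178 had both REC8 and RAD21, 109 had REC8 alone, 368 RAD21 alone and 128 neither. SMC1B and SMC1A were both present in 429 of them and in 224 of the 465 meiotic-like cells, in which 226 had SMC1B alone and 5 SMC1A alone. SMC1B and SMC3 were together in 447 meiotic-like cells. RAD21L1 was found with RAD21 in 61 and without it in 62 meiotic-like cells. REC8 and RAD21L1 were both present in 23 premeiotic-like and 3 meiotic-like cells. A count of 0 at this depth does not show that a cell lacked the RNA, and no doublets were removed. The cells were thinned anew for these counts, so that numbers of cells without a UMI can differ slightly from those above.

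In somatic groups the mitotic subunits were present, and of the meiotic ones REC8, RAD21L1 and STAG3 were low. Over the named somatic groups other than erythroid-like cells, RAD21 ranged from 184 CPM in macrophage-like to 280.2 CPM in ovarian surface epithelium-like cells and SMC3 from 155 CPM in granulosa-like to 225 CPM in pericyte-like cells. STAG2 was at 99.1 CPM in granulosa-like cells, while stroma-like cells had 96.6 CPM and endothelial-like cells 108 CPM, whose intervals overlapped. Erythroid-like cells had the lowest levels of all 5 mitotic or shared subunits among these groups, with RAD21 at 23.5 CPM and SMC3 at 36.7 CPM, but their SMC1B level was close to the 22.8 CPM of stroma-like cells. Of the meiotic subunits, REC8 was at most 5.80 CPM, RAD21L1 at most 4.39 CPM and STAG3 at most 14.9 CPM in any named somatic group. Among these groups SMC1B was highest in granulosa-like cells at 46.5 CPM (44.3 to 48.8), with pericyte-like cells at 45.9 CPM (31.8 to 64.2), so the 2 cannot be ordered. Within ending 1 SMC1B made up 55.4% (53.3 to 57.5) of the SMC1 UMIs of granulosa-like cells. The granulosa-like clusters differed, with SMC1B shares of 56.5%, 42.8%, 60.7% and 19.7% (15.6 to 24.3). REC8 UMIs per 100 SMC1B UMIs were 12.5 (10.7 to 14.5) in granulosa-like, 10.3 (7.74 to 13.5) in stroma-like and 11.4 (5.27 to 21.9) in erythroid-like cells, values whose intervals overlapped, against 7.81 (7.50 to 8.12) in germ cell-like cells. The REC8 intervals of stroma-like and erythroid-like cells include the germ cell-like value. RAD21L1 UMIs per 100 SMC1B UMIs were 9.44 (7.94 to 11.1) in granulosa-like and 8.38 (6.11 to 11.3) in stroma-like cells. In germ cell-like cells the value was 2.81 (2.64 to 3.0). Ovarian surface epithelium-like and endothelial-like cells had 10 and 10.8, with intervals above the germ cell-like one. In erythroid-like cells it was 2.27 (0.271 to 8.46), from 2 RAD21L1 UMIs, an interval that includes the germ cell-like value. The RAD21L1 ratio of these somatic groups, erythroid-like cells excepted, was thus not that of all germ cell-like cells together. STAG3 UMIs per 100 SMC1B UMIs were 24.1 in granulosa-like cells of ending 1 and 42.7 in those of ending 2, with 18.5 and 22.6 in germ cell-like cells. A cluster of 879 shallow granulosa-like cells (median 713 UMIs) had the highest somatic SMC1B, 139 CPM (115 to 166), and REC8 at 18.7 CPM.

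Among stroma-like cells RAD21 and SMC3, and also SMC1A and STAG1 (from 232 and 137 UMIs), were highest in the 1 cluster with cell cycle genes. It was also the deepest stroma-like cluster (median 7583 UMIs per cell, against 4381.5 and 2880), and the part of depth was not tested. This cluster of 202 cells, led by INSL3, RRM2 and UBE2C among others, had a summed level of 16 cell cycle genes of 3306 CPM, against 312 and 460.3 CPM in the other 2 stroma-like clusters. RAD21 was at 488 CPM (459 to 518) in it and at 178 and 181 CPM in the others. SMC3 was at 318 CPM (294 to 342) against 169 and 210.3 CPM. STAG2, at 97.6 CPM, lay between the 85.2 and 118 CPM of the other clusters. In germ cells the same 16 genes summed to 1421, 3369, 2551 and 1301 CPM in the 4 steps, and SMC1A and RAD21 were highest in the premeiotic-like step, which had most cell cycle RNA, whereas SMC3 was highest in meiotic-like cells. With cells of 200 to 3000 genes only, RAD21 was instead highest in mitotic-like cells at 283 CPM.

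Of 15 genes that load, release, acetylate or protect cohesin, 14 were in the table, and 7 of these had their highest level in meiotic-like cells, as did 33.5% of all genes. NIPBL, which loads cohesin onto chromatin, was at 127 CPM in mitotic-like, 180.4 CPM in premeiotic-like, 643 CPM (626 to 660) in meiotic-like and 264 CPM in oogenesis-like cells. Its partner MAU2 was low throughout, at 6.78 to 14.4 CPM. WAPL, which opens the ring, was at 143, 199, 359 (347 to 372) and 137 CPM in the same order. PDS5A and PDS5B, which bind the ring and modulate its release, parted, with PDS5A highest in meiotic-like cells at 87.4 CPM and PDS5B in premeiotic-like cells at 121 CPM.

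ESCO1 and ESCO2, the acetyltransferases that make cohesion stable, both stood highest in meiotic-like cells, at 215 and 383 CPM. CDCA5, which protects mitotic cohesin from WAPL, was highest in mitotic-like cells at 68.4 CPM and at 35.4 CPM in meiotic-like cells. SGO2, the protector of meiotic centromeric cohesion, was at 25.7, 113, 243 (233 to 254) and 50.5 CPM in the 4 steps, and SGO1 at 54.2, 157, 143 and 85.6 CPM. MEIKIN, a meiotic kinetochore factor that helps to protect REC8, was at 0.288 CPM, from 1 UMI, in mitotic-like cells and at 2.71, 17.8 and 24.6 CPM thereafter, the only regulator highest in oogenesis-like cells. Securin PTTG1, the inhibitor of the protease that cuts kleisins, was at 177, 416, 113 and 376 CPM, and that protease, ESPL1, was at 13.8 CPM or less. CTCF, which halts cohesin on chromatin, went from 107 CPM in mitotic-like to 52.0 CPM in oogenesis-like cells. Of the regulators with at least 10 CPM in either step, 5 of 13 were at least 2-fold higher and 0 lower from the mitotic-like to the premeiotic-like step (19.8% and 10.4% of all genes). From there to the meiotic-like step 4 of 14 were higher and 1 lower (14.9% and 13.1% of all genes), and in the oogenesis-like step 1 of 13 was higher and 7 lower (17.3% and 25.2% of all genes).

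**Figure D4:**
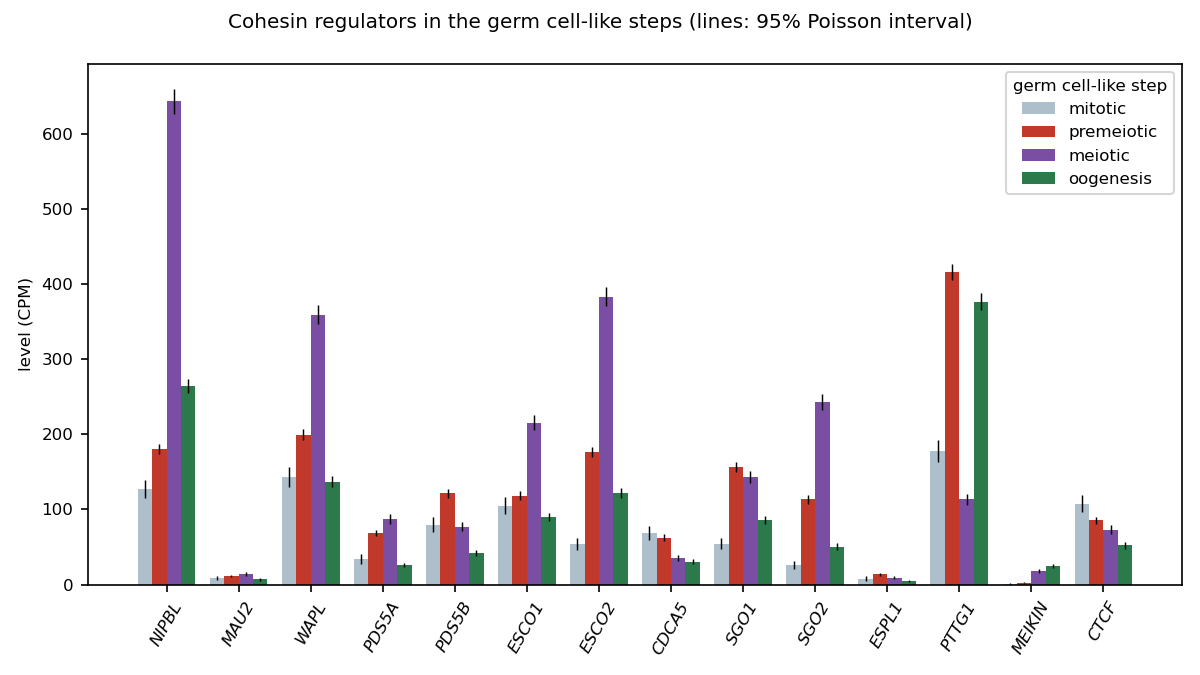
Level in CPM of the 14 measured cohesin regulators in the 4 germ cell-like steps, with 95% Poisson intervals as vertical lines (linear axis from 0). NIPBL, WAPL, ESCO2 and SGO2 are highest in meiotic-like cells, at 643, 359, 383 and 243 CPM, and PTTG1 is lowest there at 113 CPM.

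The genes whose levels ran most like each meiotic subunit were sought over 18 somatic groups and germ sub-clusters, among 6865 genes, by Pearson's correlation of log2(CPM + 10). For REC8 they were STRA8 (r = 0.98), CYP26A1, a retinoic acid-degrading enzyme (r = 0.96), APLP1, CRYGC and ESX1. For SMC1B they were TEX11, a meiotic crossover factor (r = 0.99), FAM216A, RBM44, CSPG5 and TUBA3C. For STAG3 they were CENPH, MEIG1, DMRTB1, HSF2BP and ENSMFAG00000034362, all with r = 0.98. For RAD21L1 they were CCDC122 (r = 0.97), HFM1, a meiotic helicase, ENSMFAG00000032346, LIN9 and TDRD9. STRA8, ESX1 and TEX11 are among the markers that named the germ cell steps. Among the subunits themselves SMC1B ran with STAG3 (r = 0.96) and SMC3 (r = 0.91), STAG1 with STAG2 (r = 0.93), and REC8 less closely with RAD21L1 (r = 0.44). The 18 groups come from the same 2 libraries and may share free RNA, so these values are descriptions.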

How the data were processed

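RNA of single cells was measured in 2 libraries. The authors deposited UMI counts for each gene in each cell. They used Cell Ranger 3.0.2, the Macaca_fascicularis_5.0 genome and Seurat. The counts are not normalized, and no correction for free RNA is stated. All 20967 cells were used, since an upper limit of 3000 genes, which the authors applied, takes out RNA-rich germ cells. It was tried as an alternative and leaves 16292 cells.

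Clustering used Seurat 5.3.0 in R 4.3.3 with 2000 variable genes (cohesin genes and regulators left out), 18 principal components, 20 neighbours and resolution 0.6. A second clustering of germ cell-like cells took the smallest resolution that gave at least 11 sub-clusters. A name needed 3 markers at 1.5-fold over other cells (10 CPM added) in 5% of cells, and more than any other class. It was withheld where another class supplied more of the 10 leading genes, or where cells were shallow (median under that of their barcode ending divided by 3) with no leading marker. A cluster of 806 cells with pericyte markers was left unnamed because genes of another population (CBLN2, LYPD1, ADIRF) led it. Details of this rule were set after clusters had been seen. Scrublet (scanpy 1.11.5) called 0 doublets in either ending. Its calls were not used, and no doublets were removed. Leaving out the 8% highest scores was an alternative.

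Levels are summed UMIs as CPM with exact Poisson intervals, shares have exact binomial (Clopper-Pearson) intervals, and log2 ratios exact conditional binomial intervals, all at 95%. They cover counting error only. For the 2-fold calls and the median log2 differences, counts below 3 were set to 3. Calculations used Python 3.11.15, numpy 2.4.6, scipy 1.17.1 and pandas 2.3.3, and were tested on simulated data. No count model was fitted, since there is 1 pooled sample. Named genes are the 9 subunits, their regulators, other SMC complexes, cell cycle genes and, for each meiotic subunit, the 5 most similar genes with at least 50 CPM in 1 group. Members and lists were chosen with earlier results of these data known. HDAC8 and SMC5 were not analysed here.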

Additional observations from a re-analysis of the deposited data

How the results depend on the processing

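For 2 level ratios and 3 shares, 42 values were recomputed under another choice of cells, clustering or weighting. Of these, 35 moved by less than the counting interval and 7 moved by more. A change of direction could be counted for the 2 level ratios only, not for the shares, and 0 was found. With cells of 200 to 3000 genes only, SMC1B made up 93.8% of SMC1 UMIs in meiotic-like cells (92.5% with all cells), STAG3 60.1% of STAG UMIs (55.8%) and RAD21 53.3% of kleisin UMIs (65.9%), and the log2 ratio of SMC3 from mitotic-like to meiotic-like cells was 1.84 (1.39). At resolution 0.4 that ratio was 1.62 and the log2 ratio of REC8, premeiotic-like over meiotic-like, was 2.79 (3.13). As a mean over cells the REC8 ratio was 2.82. Over the 9 genes and 3 consecutive steps, 4 of 216 recomputed orders turned: RAD21L1 and RAD21 between mitotic-like and premeiotic-like cells with 200 to 3000 genes (log2 -0.10 and -0.17, against 1.53 and 0.44), STAG1 between the same steps at resolution 0.4 (-0.08 against 0.04) and SMC1A from meiotic-like to oogenesis-like cells without cells over 20% mitochondrial UMIs (0.04 against -0.04). RAD21L1 lost its 2-fold call there, the 1 call of 216 that changed. The cause of these shifts was not tested. Shares of cells with a UMI were larger at the greater thinning depth for all 9 genes, from 5.86% at 1000 UMIs to 9.75% at 2000 UMIs for REC8. No paired analysis was possible because each age has 1 library and the cells carry no label of age. With 2 fetuses pooled, differences between animals are not covered by any interval.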

Other observations

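Condensin, the SMC complex that compacts chromosomes, was also highest in premeiotic-like or meiotic-like germ cells. SMC4, an arm shared by both condensins, was at 255, 502, 553 and 318 CPM in the mitotic-like, premeiotic-like, meiotic-like and oogenesis-like steps, and its partner SMC2 at 103, 190.4, 178 and 108 CPM. NCAPG, a subunit of condensin I, was at 47.6, 253, 377 and 189 CPM, and NCAPG2, its condensin II counterpart, at 12.4, 28.6, 70.2 and 14.9 CPM. NCAPD2, another subunit of condensin I, peaked at 57.1 CPM in premeiotic-like cells and was at 6.78 CPM in oogenesis-like cells. SMC6, of the SMC5/6 complex that acts in DNA repair, varied between 65.5 and 109 CPM. Of 12 measured genes of these complexes, 4 were at least 2-fold higher and 0 lower from the mitotic-like to the premeiotic-like step, where 19.8% and 10.4% of all genes were.

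Among cell cycle genes the germ cell steps parted. MKI67, a proliferation marker, went from 413 CPM (402 to 424) in premeiotic-like to 111 CPM (104 to 118) in meiotic-like cells, while TOP2A, a topoisomerase that untangles chromosomes, was at 769 and 1064 CPM (1043 to 1086). In oogenesis-like cells TOP2A was at 59.5 CPM and MKI67 at 20.2 CPM, but AURKA, a spindle kinase, and BUB1, a checkpoint kinase, had their highest levels there, at 131 CPM (125 to 138) and 106 CPM (100.2 to 113). PCNA, the replication clamp, remained at 350.1 CPM in oogenesis-like cells against 375 CPM in meiotic-like cells. These values are pooled over both barcode endings, and 654 of the 674 oogenesis-like cells have barcodes ending in 2.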
